A study of Mus musculus with 18 samples.

Results

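The NR4A genes Nr4a1, Nr4a2 and Nr4a3 encode the orphan nuclear receptors NUR77, NURR1 and NOR1. They were taken by row name, and all 3 were among the 12558 genes of the deposited table. The receptors share a DNA-binding domain that recognises the NBRE element, and they act without a classical ligand, so that their activity follows largely from how much of each is made. All are immediate early genes. In muscle they are induced by exercise and by beta-adrenergic and calcium signals that act through CREB and MEF2, and they are known for regulating genes of glucose and lipid use. NURR1 is best known for its role in dopamine neurons.

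The study addressed NURR1 activation in skeletal muscle and systemic energy balance, and it sequenced total RNA of mouse skeletal muscle in 18 libraries, 3 in each of 6 groups. The diets lasted 10 weeks, and wild-type mice ate normal chow (WT-NC) or a high-fat diet (WT-HFD), and further wild-type mice on each diet drank water containing AQ (WT-NC-AQ and WT-HFD-AQ). Nurr1 transgenic mice (HFD-Nurr1-mTg) and their wild-type transgenic controls (HFD-WT) were all on the high-fat diet, so the transgene has no chow counterpart here. The dose and duration of AQ, what the letters stand for, the promoter of the transgene, the number of transgenic lines, and the age and sex of the mice are not stated in the labels. The labels number the libraries as biological replicates without saying more of their origin, so p-values measure the spread between these samples.

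Depth was 10404895 to 16082994 recovered reads per library, and 3 reads corresponded to 0.191 to 0.277 CPM, the deposited unit, which relates the reads of a gene to those of its library. All 10 skeletal muscle markers were rows of the table, and their summed level was 149932 to 216386 CPM. Whole muscle holds several cell types, and in such bulk RNA fewer cells of a type and less RNA per cell cannot be told apart. One library stood apart from its group on stress-related lists. The second WT-HFD replicate had the highest immediate early score of all libraries, 0.83 above the mean over libraries in log2 units, and a heat shock score 1.09 above the mean.

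In the mouse genome (GRCm38, GENCODE M21) Nr4a1 lies at chr15:101254269-101274795 on the plus strand with 3509 bases of exon, Nr4a2 at chr2:57106830-57124003 on the minus strand with 4059, and Nr4a3 at chr4:48045153-48086447 on the plus strand with 5987. No other annotated gene overlaps them. Their annotated transcripts share 0 sequence words of 50 bases, the read length, in either orientation, so a read without mismatches could not be placed on 2 of the members.

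The sequences upstream of the 3 start sites are shown because the members are described below as varying together in part, and because CREB binds the CRE half-site, CGTCA or its complement TGACG. They come from RefSeq (GRCm38.p6), where all 3 members matched, and run 5′ to 3′ on the strand of the gene. Capitals mark CRE half-sites. For Nr4a1 the stretch is chr15:101266596-101266845, inside the gene's annotated span but in no annotated exon. For Nr4a2 it is chr2:57124004-57124253, and for Nr4a3 it is chr4:48045055-48045152, which stops where an annotated exon begins.
Nr4a1: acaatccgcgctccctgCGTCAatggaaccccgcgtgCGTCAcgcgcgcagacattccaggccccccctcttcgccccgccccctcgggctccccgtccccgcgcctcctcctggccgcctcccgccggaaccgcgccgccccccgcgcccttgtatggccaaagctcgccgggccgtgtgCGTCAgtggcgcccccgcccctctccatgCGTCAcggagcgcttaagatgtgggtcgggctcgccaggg
Nr4a2: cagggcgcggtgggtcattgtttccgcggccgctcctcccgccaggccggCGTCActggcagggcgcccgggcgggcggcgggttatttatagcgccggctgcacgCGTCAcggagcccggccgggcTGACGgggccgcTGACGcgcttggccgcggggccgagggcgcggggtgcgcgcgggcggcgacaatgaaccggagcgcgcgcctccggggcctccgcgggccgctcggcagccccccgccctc
Nr4a3: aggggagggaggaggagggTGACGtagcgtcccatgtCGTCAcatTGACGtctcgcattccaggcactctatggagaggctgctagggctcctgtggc

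Each member held 4 CRE half-sites, counted on both strands, within the 250 bases upstream of its RefSeq start, of which 3 fall in the shorter stretch shown for Nr4a3. Among all 32851 promoter windows of that length, 17.8% held at least 1 half-site and 0.137% held at least 4. Those windows were not matched for GC content, which is 74.4% in the window of Nr4a1, 80% in that of Nr4a2 and 63.6% in that of Nr4a3. In Nr4a1 the half-sites began 233, 213, 69 and 40 bases upstream of the start, in Nr4a2 200, 144, 123 and 111, and in Nr4a3 231, 213, 205 and 147. The full element TGACGTCA, which 1.55% of windows hold, was in none of the 3. The NBRE letters AAAGGTCA, the E-box CACGTG and a CArG box were in none either, and they were in 1.34%, 6.02% and 1.47% of windows. Nr4a2 alone held a MEF2-type site, 167 to 158 bases upstream, which overlaps the letters TATAAA on the minus strand. MEF2-type sites were in 2.92% of windows and TATAAA in 12.4%. These matches describe letters only and say nothing of binding.

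The members differed widely in level. Per kb of exon, Nr4a1 made up 96.9% to 98.9% of the summed NR4A level in the 15 libraries without the transgene. Nr4a2 made up 0.519% to 1.27% and Nr4a3 0.445% to 2.28%. Nr4a1 was thus 77.2 to 190 times the per-kb level of Nr4a2 there. Among the 33 nuclear receptor genes found in the table, Nr4a1 ranked 2 by mean per-kb level in those 15 libraries, after Nr1d1 (REV-ERB alpha, a clock repressor) and ahead of Rxra, while Nr4a3 ranked 31 and Nr4a2 ranked 32. A per-kb level assumes even coverage of each gene model, and reads from a transgene that lacks the untranslated parts would break that assumption. Dividing by coding length instead gave an Nr4a1 to Nr4a2 ratio of 66.4 to 164 in those libraries.

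**Figure D1:**
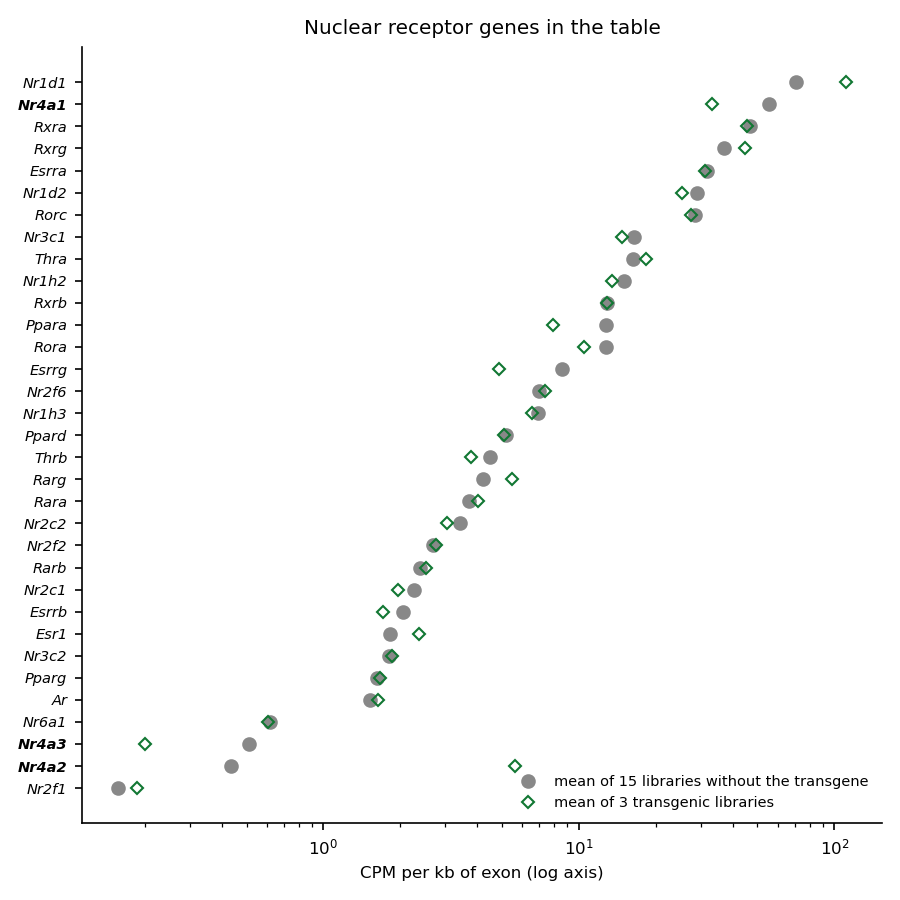
Mean CPM per kb of exon (log axis) of 33 nuclear receptor genes, ordered by the mean of the 15 libraries without the transgene (circles), with the mean of the 3 transgenic libraries as diamonds. Nr4a2 moves from rank 32 to rank 16 with the transgene, Nr4a1 from 2 to 4 and Nr4a3 from 31 to 32.

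Nr4a2 is the gene the transgene carries, and its level checks the labels. In the transgenic libraries it stood at 18.8, 30.1 and 19.8 CPM, from 255 to 452 reads, and in their controls at 1.86, 2.30 and 1.57 CPM, from 21 to 29 reads. Every transgenic library was above every other library of the series, whose range was 0.828 to 4.79 CPM. The mean was 22.9 ± 6.2 CPM (SD, n = 3) against 1.91 ± 0.37 CPM, a ratio of means of 11.99. Fold changes here are given on the log2(CPM + 1) scale unless another setting is named, and that scale understates the change of low genes. The Nr4a2 difference on it was 3.02 ± 0.27 (SE), at an adjusted p of 7.91e-06 (limma, Benjamini-Hochberg over 12524 genes). Nr4a2 ranked 3 of those genes by p. It was the single member to pass in this comparison, where 0.599% of genes tested passed. The reads cannot separate transcripts of the transgene from those of the mouse's own gene.

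Nr4a1 was lower in the same transgenic muscle without passing the threshold. It measured 111, 110 and 128 CPM in the transgenic libraries and 184, 258 and 255 CPM in the controls. The groups did not overlap, as was the case for 14.3% of genes tested. The means were 116 ± 9.8 and 232 ± 42 CPM (SD, n = 3 each), and the log2 difference was -0.98 ± 0.22 (SE; limma adjusted p = 0.0557). This lies close to the threshold: edgeR on the recovered reads gave -0.999 with an adjusted p of 0.0511, DESeq2 gave an adjusted p of 0.0012, and the limma fit of these groups alone gave 0.0071. Without the first control replicate, the lowest of the controls, it was -1.14 with a limma adjusted p of 0.0431. Without any 1 of the other 5 libraries it was -1.05 to -0.90 with limma adjusted p of 0.0855 to 0.230, and the limma adjusted p was 0.0973 without a variance trend and 0.0807 after removal of a GC trend. No cell type marker passed in this comparison. All 6 Schwann cell markers were below 0 (median -0.37), 9 of 10 muscle markers were below 0 (-0.15) and all 9 leukocyte markers were above 0 (0.29), and their part in the difference was not tested.

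Nr4a3 did not pass the test with the transgene, and its transgenic libraries were far apart. It was at 2.81 CPM (38 reads) in the first transgenic replicate and at 0.333 CPM (5 reads) and 0.468 CPM (7 reads) in the others. The Poisson 95% interval of the first, 1.99 to 3.85 CPM, lies above those of the others, 0.108 to 0.776 and 0.188 to 0.963 CPM, which cover counting error only. The controls were at 1.99, 1.98 and 2.84 CPM, so the first transgenic replicate lies among the controls and the groups overlap. The log2 difference was -0.73 ± 0.38 (SE) with a limma adjusted p of 0.610, and -1.22 with 0.221 without the first transgenic replicate. Without the second or the third it was -0.46 and -0.53 (limma adjusted p of 0.975 and 0.799). The immediate early score of that replicate was -0.09 from the mean over libraries, against -0.29 and -0.22 in the others.

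The make-up of the family therefore differed in transgenic muscle. Nr4a1 was 84.95 ± 3.8% of the summed per-kb level there and Nr4a2 was 14.5 ± 4.0% (SD, n = 3), with Nr4a1 still 4.23 to 7.44 times the per-kb level of Nr4a2. By coding length that ratio was 3.64 to 6.40. The summed level was 39.0 ± 2.3 CPM per kb in transgenic muscle and 67.1 ± 12 in the controls. These are descriptions, since the sum follows Nr4a1.

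**Figure D2:**
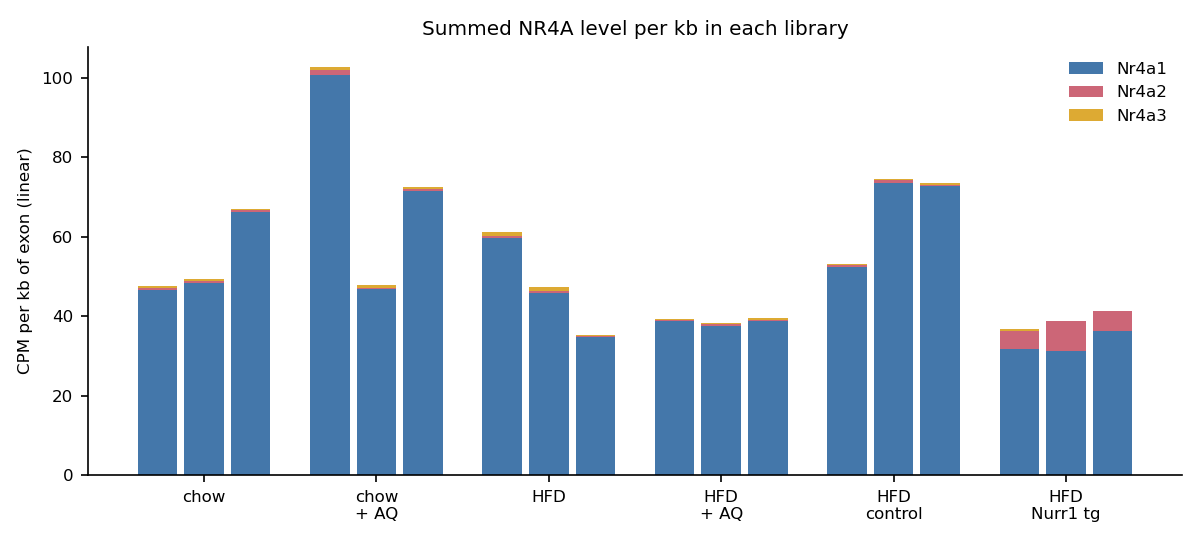
Summed level of the 3 NR4A genes in CPM per kb of exon (linear axis) in each library, stacked by gene, with 3 libraries per group in replicate order. Nr4a1 fills nearly the whole bar in the 15 libraries without the transgene, and Nr4a2 is 11.8% to 19.1% of the bar in the transgenic libraries.

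The high-fat diet alone gave no call for any member in wild-type muscle, where 0.0479% of genes tested passed. Nr4a1 measured 164, 170 and 233 CPM on chow and 210, 161 and 122 CPM on the high-fat diet, with overlapping groups and a log2 difference of -0.22 ± 0.22 (SE; limma adjusted p = 0.786). Nr4a2 was at 1.66, 1.11 and 1.54 CPM on chow and 1.59, 1.49 and 1.07 CPM on the high-fat diet (-0.03 ± 0.27, limma adjusted p = 0.979). The 95% interval of that difference, -0.60 to 0.53, still allows changes of either sign.

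Nr4a3 split the WT-HFD group. It was at 6.85 and 6.47 CPM in the first and second replicate, the highest levels of the series, and at 1.40 CPM in the third, below every chow library (2.93, 3.34 and 1.99 CPM). The difference from chow was 0.49 ± 0.38 (SE) with a limma adjusted p of 0.697, and 1.05 with 0.190 without the third replicate. Without the first or the second it was 0.19 and 0.23 (limma adjusted p of 0.922 and 0.971). The same library had also the lowest Nr4a1, Nr4a2 and immediate early score (-0.31) of its group.

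Between the diets in mice given AQ, Nr4a1 fell on the high-fat diet. It measured 136, 132 and 136 CPM in WT-HFD-AQ and 354, 165 and 251 CPM in WT-NC-AQ. The groups did not overlap, as in 33.2% of genes tested. The log2 difference was -0.85 ± 0.22 (SE) with a limma adjusted p of 0.0207, in a comparison in which 10.6% of genes tested passed, so a call there was common. The call was lost without the first WT-NC-AQ replicate, the highest (-0.59, limma adjusted p = 0.111), and without any of 4 other libraries, where the difference was -0.86 to -0.84 (limma adjusted p of 0.0545 to 0.0713), and also with a clock score as covariate (0.0551) or after removal of a GC trend (0.0579). The 3 WT-HFD-AQ libraries differed by only 1.69% (coefficient of variation) in Nr4a1, compared with 37.0% in WT-NC-AQ. Markers of other cell types passed in this comparison too, named after their values were seen. Lower on the high-fat diet were Myod1 and Cdh15 of 5 satellite cell markers (-0.66 and -0.64), Col3a1 and Fbn1 of 8 fibroblast and matrix markers (-0.98 and -1.52), Acta2 of 6 smooth muscle and pericyte markers (-0.74) and Csf1r of 9 leukocyte markers (-0.54). Higher were Erg and Flt1 of 9 endothelial markers (0.50 and 0.58), Lum of fibroblasts and matrix (0.47), Rgs5 of pericytes (0.65), Cidea of 9 adipocyte markers (1.29) and the muscle marker Mb (0.85). None of 6 Schwann cell markers passed. Their part in the difference of Nr4a1 was not tested.

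Nr4a3 did not overlap in that comparison either, at 1.34, 1.47 and 1.57 CPM in WT-HFD-AQ against 4.02, 3.56 and 4.03 CPM in WT-NC-AQ. The difference was -0.98 ± 0.38 (SE) with a limma adjusted p of 0.106. In a fit of these 2 groups alone, which does not take in the wide spread of Nr4a3 in WT-HFD and the transgenic group, the limma adjusted p was 0.00082. Over all settings, which include other pseudocounts and count models, the difference ran from -1.41 to -0.53. The adjusted p (limma, edgeR or DESeq2) reached 0.645 there. Without 1 library the difference was -1.03 to -0.95, with limma adjusted p of 0.154 to 0.227. Nr4a2 was at 0.828, 1.26 and 2.03 CPM against 4.79, 1.26 and 2.05 CPM, overlapping, with a difference of -0.56 ± 0.27 (limma adjusted p = 0.206), and of -0.17 without the first WT-NC-AQ replicate.

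AQ on chow gave no call for a member, in a comparison in which 1.11% of genes tested passed. Nr4a1, Nr4a2 and Nr4a3 differed by 0.39 ± 0.22, 0.49 ± 0.27 and 0.39 ± 0.38 (log2, SE) from untreated chow muscle, with limma adjusted p of 0.424, 0.400 and 0.668. Nr4a3 was the member whose groups did not overlap, as in 19.8% of genes tested. The higher means of Nr4a1 and Nr4a2 rest on the first WT-NC-AQ replicate, which was highest of its group in both: without it the differences were 0.12 and 0.11. Nr4a3 in that replicate (4.02 CPM) was level with the others. Of the marker lists, 2 leukocyte markers (H2-Aa and H2-Eb1), 2 endothelial (Vwf and Cldn5) and 2 satellite cell markers (Myod1 and Cdh15) passed higher with AQ on chow, by 0.45 to 1.02.

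AQ on the high-fat diet gave no call for a member either, where 0.0479% of genes tested passed. Nr4a1 differed by -0.25 ± 0.22 and Nr4a2 by -0.03 ± 0.27 (log2, SE), with limma adjusted p of 0.708 and 0.979. Nr4a3 differed by -1.08 ± 0.38 with a limma adjusted p of 0.254, from a mean of 4.91 ± 3.0 CPM to 1.46 ± 0.12 CPM (SD, n = 3). The groups overlapped through the third WT-HFD replicate, without which the difference was -1.64 with a limma adjusted p of 0.0171. Across the fits without 1 library the difference ran from -1.64 to -0.79, with limma adjusted p of 0.0171 to 0.637. The summed level of 9 of 10 adipocyte markers, none at 0 in any library, was 357 to 419 CPM in WT-HFD and 251 to 338 CPM in WT-HFD-AQ, and none of the 9 passed. Erg was the 1 of 9 endothelial markers to pass, higher with AQ (0.56 ± 0.09, limma adjusted p = 0.0267). All 15 heat shock genes were below 0 in this comparison, none passing, with a median of -0.35, or -0.14 without the second WT-HFD replicate. Their part in the difference of Nr4a3 was not tested.

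Nr4a3 thus had differences of opposite sign on the 2 diets, and the interaction, the difference on the high-fat diet minus that on chow, was -1.47 ± 0.53 (SE). Its limma adjusted p was 0.222, where 0.711% of genes tested passed. The exact permutation p over libraries within diets was 0.02 (two-sided, 400 arrangements, smallest possible 0.005), or 0.4 after adjustment over the 24 tests of members. Shuffling AQ labels within each diet takes AQ to have no effect on either diet, so that p does not test equal effects. For Nr4a1 and Nr4a2 the interaction was -0.64 ± 0.31 and -0.52 ± 0.38, with limma adjusted p of 0.367 and 0.563. Over both diets together no member passed, against 0.224% of genes tested, with differences of 0.07, 0.23 and -0.35 for Nr4a1, Nr4a2 and Nr4a3.

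**Figure D3:**
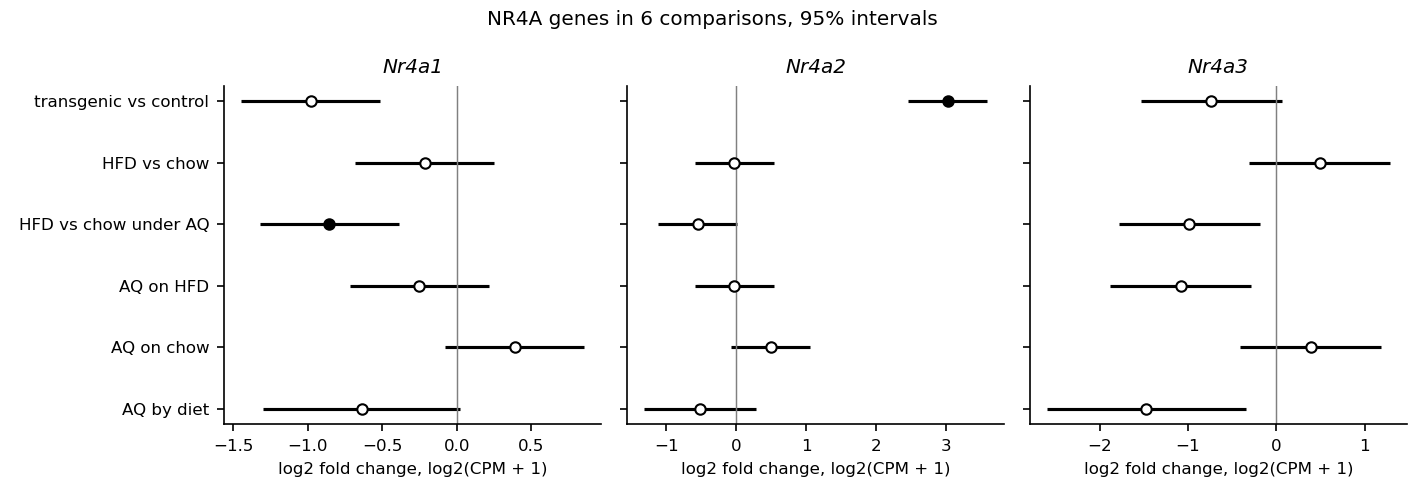
Log2 fold change on the log2(CPM + 1) scale with its 95% interval for each NR4A gene in 6 comparisons (limma, 18 libraries). Filled points have an adjusted p under 0.05: Nr4a2 in the transgene comparison (3.02) and Nr4a1 between the diets under AQ (-0.85).

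In order of mean level, Nr4a1 ran from WT-NC-AQ (256 ± 95 CPM, SD, n = 3) through HFD-WT (232 ± 42), WT-NC (189 ± 38), WT-HFD (164 ± 44) and WT-HFD-AQ (135 ± 2.3) to the transgenic group (116 ± 9.8). No pair of neighbours in this order passed the limma test. The smallest gap was that between the first groups (-0.09 ± 0.22), and the last pair differed by -0.21 ± 0.22 (limma adjusted p = 0.547). Nr4a2 in the transgenic group passed against the next group, WT-NC-AQ (2.78 ± 0.27, limma adjusted p = 1.40e-05), where 4.43% of genes tested passed. Below that it followed a flat order, from WT-NC-AQ (2.70 ± 1.9) and HFD-WT (1.91 ± 0.37) to WT-NC (1.44 ± 0.29), WT-HFD (1.38 ± 0.28) and WT-HFD-AQ (1.37 ± 0.61), and no neighbours there passed. Nr4a3 was highest in WT-HFD (4.91 ± 3.0), then WT-NC-AQ (3.87 ± 0.27), WT-NC (2.75 ± 0.69), HFD-WT (2.27 ± 0.49), WT-HFD-AQ (1.46 ± 0.12) and the transgenic group (1.20 ± 1.4), and again no neighbours passed. Pairs further apart did pass, among them WT-HFD-AQ against WT-NC-AQ for Nr4a1 (-0.85 ± 0.22, limma adjusted p = 0.0207), where 10.6% of genes tested passed. Nr4a1 was higher in HFD-WT than in WT-HFD-AQ (0.77 ± 0.22, limma adjusted p = 0.0298) and lower in the transgenic group than in WT-NC-AQ (-1.07 ± 0.22, limma adjusted p = 0.0099). Nr4a3 was lower in the transgenic group than in WT-HFD (-1.41 ± 0.38, limma adjusted p = 0.0293), although those groups overlap. Nr4a2 in the transgenic group passed against each of the other 5 groups, by 2.78 to 3.33. Apart from WT-HFD-AQ against WT-NC-AQ and HFD-WT against the transgenic group, these pairs join the AQ groups with the transgene groups. Of all genes tested, 0.966% passed between WT-NC-AQ and HFD-WT, 6.62% between WT-NC and HFD-WT, 5.84% between WT-HFD and WT-NC-AQ, 13.9% between WT-HFD-AQ and HFD-WT and 16.9% between WT-HFD-AQ and the transgenic group, 7.37% between WT-HFD and the transgenic group and 12.1% between WT-NC and the transgenic group.

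The AQ groups and the transgene groups have separate wild-type controls, and these untreated wild-type groups on the high-fat diet differed from each other in 4.46% of genes tested. No member passed between those groups: Nr4a1 was 0.51 ± 0.22 higher in HFD-WT (limma adjusted p = 0.200) and Nr4a3 -0.68 ± 0.38 (0.328), the latter -1.24 with 0.0259 without the third WT-HFD replicate. Across the fits without 1 library Nr4a3 ran from -1.24 to -0.38, with limma adjusted p of 0.0259 to 0.687. Nr4a2 differed by 0.29 ± 0.27 (limma adjusted p = 0.589).

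**Figure D4:**
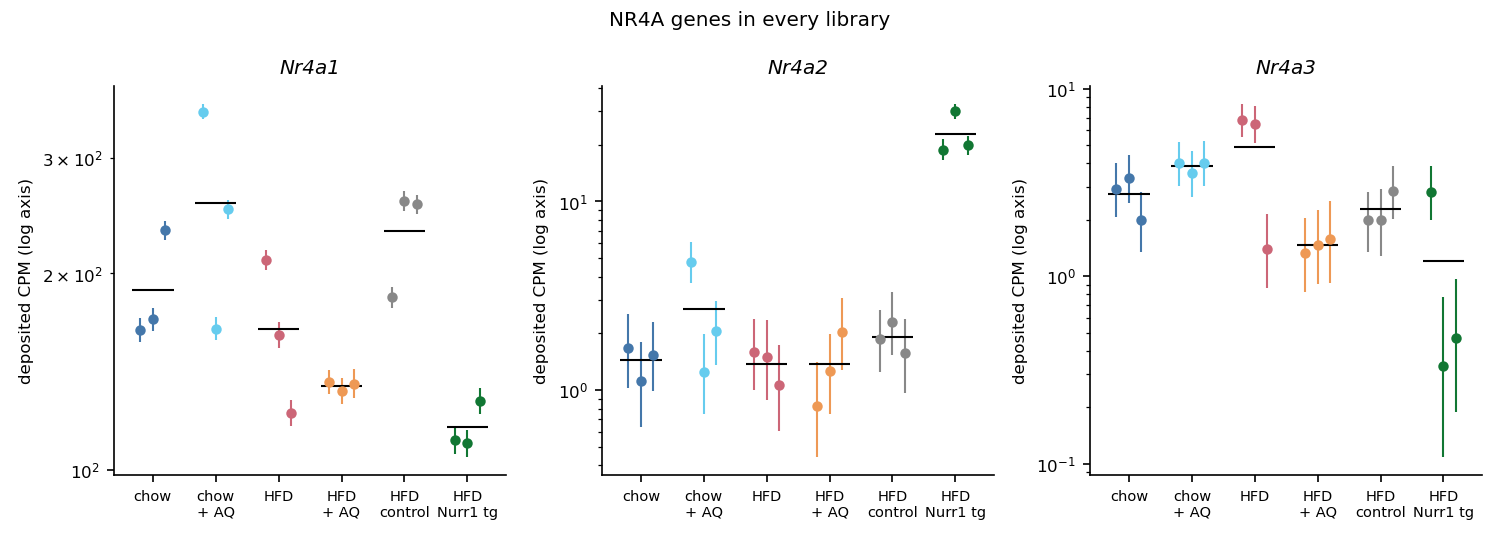
Deposited CPM (log axis) of each NR4A gene in every library, 3 points per group in replicate order, with Poisson 95% intervals for counting error and a bar at the group mean. Nr4a2 is at 18.8 to 30.1 CPM in the transgenic group, and Nr4a3 is widest in WT-HFD (1.40 to 6.85 CPM) and in the transgenic group (0.333 to 2.81 CPM).

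Other immediate early genes were described alongside, since the NR4A genes belong to that class. Of a list of 31, 30 were in the table. In the transgene comparison 1 passed, lower: Klf2, an endothelial and leukocyte transcription factor, at 12.1 ± 1.7 against 29.5 ± 7.6 CPM (-1.19 ± 0.26, limma adjusted p = 0.0453). Of the 30, 26 were below 0, with a median of -0.45, against 50.3% below 0 and a median of -0.0009 over all genes. Without 1 library that median was -0.57 to -0.30, the latter without the first HFD-WT replicate, where 23 of 30 were below 0. Between the diets under AQ 5 of 30 passed, all lower on the high-fat diet, against 10.6% of genes tested, with a list median of -0.40. It was -0.47 to -0.29 without 1 library, the latter without the first WT-NC-AQ replicate. The 5 genes that passed, named after their values were seen, were Klf2, Klf4, Jund, Fosl2 and Sik1, with log2 differences of -0.97, -1.18, -0.58, -0.60 and -0.84. With AQ on the high-fat diet none passed, 29 of 30 were below 0 and the median was -0.51, or -0.26 without the second WT-HFD replicate. With AQ on chow none passed and the median was -0.02.

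Across the 18 libraries Nr4a3 rose with the immediate early score, the mean log2(CPM + 1) of these genes. Pearson's r was 0.65 (permutation p = 0.00338, adjusted over 24 relations 0.0406) and Spearman's rho 0.70 (permutation p = 0.00186). Without the 2 libraries farthest from the median of Nr4a3 r was 0.66. It was 0.82 over the 12 libraries of the AQ groups and 0.55 over the 6 of the transgene groups. Within groups, on deviations from the group means, r was 0.55 with an exact permutation p of 0.195 (adjusted 0.710), which does not pass. For Nr4a1 the pooled r with the score was 0.47 (permutation p = 0.0503, adjusted 0.201; rho 0.64, permutation p = 0.00547), 0.35 without the 2 extreme libraries, and 0.21 within groups.

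**Figure D5:**
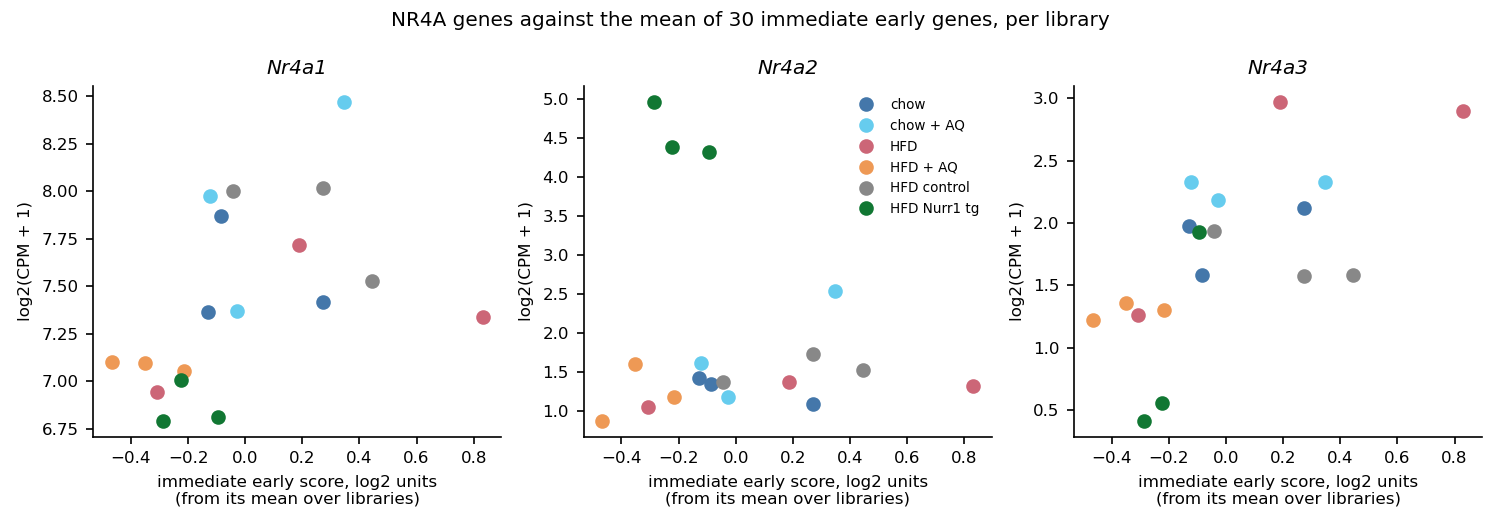
Level of each NR4A gene as log2(CPM + 1) against the immediate early score, the mean of 30 immediate early genes as a deviation from its mean over libraries (log2 units), 1 point per library, coloured by group. The WT-HFD-AQ libraries lie at scores of -0.47 to -0.22 and the transgenic libraries at -0.29 to -0.09.

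Among the members themselves, Nr4a1 and Nr4a2 rose together over the 15 libraries without the transgene, with r = 0.75 (permutation p = 0.00082, adjusted 0.0197) and rho = 0.65 (permutation p = 0.0106). Without the 2 libraries farthest from the median of Nr4a1 r was 0.50, and within groups it was 0.59 (exact permutation p = 0.0857), or 0.16 without the 2 libraries of most deviating Nr4a1. The first WT-NC-AQ replicate (354 and 4.79 CPM) was highest of these 15 libraries in both genes. Nr4a1 and Nr4a3 had r = 0.53 over 18 libraries (permutation p = 0.0236, adjusted 0.142; rho 0.59, permutation p = 0.0112) and Nr4a2 and Nr4a3 r = 0.26 over 15 (permutation p = 0.352; rho 0.33, permutation p = 0.227), neither of which passed.

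Nr4a1 moved against the leukocyte markers within groups. The leukocyte score, the mean over 9 of 12 listed markers that were rows of the table, had a within-group r of -0.82 with Nr4a1 and rho of -0.87 (exact permutation p = 0.000279 over 46656 arrangements, adjusted over 24 relations 0.00669). It was -0.74 without the 2 libraries of most deviating Nr4a1, -0.88 within the AQ groups and -0.99 within the transgene groups. Within the transgene groups r was also -0.98 with the adipocyte score and -0.84 with the fibroblast and matrix score, and the first HFD-WT replicate lay above the mean over libraries on all of these (1.09 for adipocytes, 0.67 for fibroblasts and matrix). Within the AQ groups those r were -0.24 and 0.07. Over all libraries without regard to group r was -0.31 (permutation p = 0.215; rho -0.26, permutation p = 0.300). In HFD-WT the first replicate had the lowest Nr4a1 and the highest leukocyte score (0.57 from the mean over libraries, against -0.13 in both others), and in WT-NC-AQ the second replicate did (0.49, against -0.09 and 0.06). The summed marker level was 168 to 282 CPM in HFD-WT and 212 to 266 CPM in transgenic muscle, 194 to 281 CPM in WT-NC-AQ and 150 to 161 CPM in WT-HFD-AQ. None of the 9 markers was at 0 in any library. Its part in the results on Nr4a1 was not tested.

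A clock score differed between the same groups. The score, the log2(CPM + 1) of the activator gene Arntl minus that of the output gene Dbp, was -3.28 to -2.96 in transgenic muscle and -1.92 to -1.43 in the controls, without overlap, as in 14.3% of genes tested. Of the 17 listed clock genes none passed there, with 8 above 0 and 9 below, a median of -0.0034 and Arntl at -0.94 (limma adjusted p = 0.179). It was -4.65 to -3.95 in WT-HFD-AQ and -1.62 to -0.24 in WT-NC-AQ, again without overlap, as in 33.2% of genes tested. There 8 of the 17 clock genes passed, against 10.6% of genes tested, 4 higher on the high-fat diet and 4 lower, Arntl among the latter (-2.41, limma adjusted p = 0.00011). Times of tissue collection are not stated in the labels. In untreated chow muscle the score ran from -4.37 to -0.65. With this score as a covariate the Nr4a1 difference was -1.17 between transgenic and control muscle (limma adjusted p = 0.0439) and -1.27 between the diets under AQ (0.0551). Nr4a1 had an r of 0.49 with the score across libraries and of -0.34 within groups. Since the score does not overlap between the groups compared, this fit cannot separate the clock from the group. Its part in the differences of Nr4a1 was not tested.

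Upstream of the family, 28 of 29 listed genes of the cAMP, calcium and MEF2 route were measured. None passed in the transgene comparison, in the diet comparison of untreated mice or with AQ on the high-fat diet. With AQ on chow Nfatc1, a calcium-dependent transcription factor, was higher (72.2 ± 4.8 against 54.5 ± 2.7 CPM, 0.40 ± 0.09, limma adjusted p = 0.0430). Without AQ, Nfatc1 stood at 58.4 ± 4.8 CPM in WT-HFD and at 87.2 ± 9.5 CPM in HFD-WT, above the level with AQ on chow. Between the diets under AQ 4 of 28 passed, against 10.6% of genes tested, all lower on the high-fat diet: Nfatc1 (-0.41), the CREB co-activator Crtc1 (-0.64), and the kinase genes Camk2b (-0.38) and Prkacb (-0.22), named after their values were seen.

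The retinoid X receptors are partners of NURR1 and NUR77 on DNA. Of 20 listed partners and co-regulators 18 were measured, and none passed in the transgene comparison. With AQ on chow Nrip1, a co-repressor gene, was lower (18.7 ± 3.6 against 36.4 ± 9.9 CPM, -0.91 ± 0.17, limma adjusted p = 0.0216). Without AQ, Nrip1 stood at 39.8 ± 1.4 CPM in WT-HFD and at 20.6 ± 4.3 CPM in HFD-WT, near the level with AQ on chow. Of 30 other nuclear receptor genes in the table none passed in the transgene comparison, and with AQ on chow Rara, a retinoic acid receptor gene, was higher (0.58 ± 0.12, limma adjusted p = 0.0293). Rara stood at 19.9 ± 0.46 CPM in WT-NC-AQ and 13.0 ± 0.41 CPM in WT-NC. In mice without AQ on the high-fat diet it was at 11.9 ± 2.1 CPM in WT-HFD and 21.6 ± 2.4 CPM in HFD-WT.

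Downstream, 14 muscle genes of glucose and glycogen use that have been linked to NR4A receptors were all measured. In transgenic muscle Hk2, which encodes the hexokinase that traps glucose in muscle, was higher at 557 ± 24 against 392 ± 37 CPM (0.51 ± 0.09, limma adjusted p = 0.0057). Its level in transgenic muscle was near that of WT-HFD (552 ± 31), WT-HFD-AQ (550 ± 16) and WT-NC (558 ± 50 CPM), and HFD-WT was the lowest of the 6 groups, also against WT-HFD (-0.50 ± 0.09, limma adjusted p = 0.0039). Bpgm, which encodes bisphosphoglycerate mutase, was lower at 89.1 ± 7.6 against 168 ± 21 CPM (-0.91 ± 0.14, limma adjusted p = 0.0023), and 128 to 153 CPM on average in the other 4 groups. The other 12 did not pass. In all 12 of 14 were above 0 with a median of 0.30, against 49.7% above 0 over all genes. Between the diets under AQ Pygm, Aldoa and Gpi1 were lower on the high-fat diet (-0.56, -0.57 and -0.43) and Fbp2 higher (0.67), 4 of 14 against 10.6% of genes tested, named after their values were seen.

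Of 14 muscle genes of lipid use and oxidation linked to the family none passed in the transgene comparison, where 7 were above 0 and 7 below. The smallest p belonged to Lpin1, a phosphatidate phosphatase gene, at 0.36 ± 0.12 (limma adjusted p = 0.255). Between the diets under AQ the fatty acid carriers Fabp3 (1.91) and Cd36 (1.02) and the phosphatase gene Pdp1 (0.77) were higher on the high-fat diet and Lpin1 (-0.54) was lower, again 4 of 14 against 10.6%, named after their values were seen. Of 12 targets of NURR1 known from neurons and bone 6 were rows of the table, and none passed in the transgene comparison. Pitx3 and Bdnf had the smallest p there (0.48 ± 0.20 and 0.52 ± 0.21, limma adjusted p of 0.448 and 0.443).

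The NBRE letters were in the upstream window of 2 of the 36 genes other than Nr4a2 that passed higher in transgenic muscle and had a RefSeq window (5.56%), of 0 of the 17 that passed lower, and of 99 of 9438 genes tested (1.05%). These genes, named after their values were seen, were Mrvi1 (2.37) and Aimp2 (1.13).

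The genes whose pattern over the 18 libraries was most like that of each member were ranked by Pearson's r among 10761 genes, as a description, since all come from the same libraries. For Nr4a1 they were Klf2 (r = 0.89), Apold1 (0.86), Pnrc1 (0.82), Slc43a1 (0.82) and Med13l (0.82). Klf2 was highest in the first WT-NC-AQ replicate at 52.9 CPM, as Nr4a1 was, and so was Apold1, an immediate early gene of endothelium, at 22.1 CPM against 1.68 to 10.6 CPM in the other 17 libraries. For Nr4a2 the list followed the transgene, with Cdkn2b (0.96), Tlr5 (0.93), Tom1l2 (0.92), Ostn (0.91) and Syt9 (0.91). Like Nr4a2, Cdkn2b and Tlr5 were highest in the second transgenic replicate, at 9.25 and 18.1 CPM. For Nr4a3 they were Gabarapl1 (0.87), an autophagy gene, Rhoj (0.86), Hmga2-ps1 (0.86), Pim3 (0.83) and Omd (0.82).

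On deviations from the group means the most alike genes were other ones. They were Serinc1 (0.93), Ei24 (0.89), Stab2 (0.87), Cyb5d1 (0.85) and Irs2 (0.82) for Nr4a1. For Nr4a2 they were Phip (0.87), Pou2f1 (0.83), Fosl2 (0.83), Acer3 (0.83) and Apold1 (0.80), and for Nr4a3 Medag (0.91), Ctgf (0.89), Dnajc25 (0.87), Paxip1 (0.86) and Gbp10 (0.86). Apold1 was on the list of Nr4a1 over libraries and of Nr4a2 within groups. Among the 10761 genes Nr4a2 ranked 334 in likeness to Nr4a1 within groups and Nr4a3 ranked 2486.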

How the data were processed

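RNA of skeletal muscle from 18 mouse samples was measured by single-end sequencing of 50-base reads. TopHat2 2.0.12, edgeR and the builds GRCm38 and mm10 are named in the submitters' processing notes. The read counter, its annotation and its use of strand are not stated in the labels. The values the authors deposited are a normalized signal per gene, named CPM. They sum to 929993 to 1071538 per library, and 100% of them are whole reads times 1 factor per library (tolerance 1e-06), from which reads were recovered. On the recovered reads edgeR called 81 genes in the transgene comparison.

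Values were tested on log2(CPM + 1) with limma 3.58.1 (R 4.3.3, eBayes with trend), in 1 fit of 6 group means with 12 residual degrees of freedom, over 12524 genes at 1 CPM or more in at least 3 libraries, with Benjamini-Hochberg adjustment and a threshold of 0.05. The design had foreseen equal sums per library, and the same test was kept. Exact permutation tests of 3 against 3 libraries cannot go below 0.1. The code was tested on simulated data. Alternatives were pseudocounts of 0.25 and 4, other filters and scalings, edgeR 4.0.16 and DESeq2 1.42.0 on recovered reads, fits of the compared groups alone, a replicate block, a clock covariate, removal of a GC trend (GC known for 99.5% of genes), and leaving out each library. The closest pair of replicates differed by 4.26 times the sampling noise (chi-square per degree of freedom), so none was counted as a duplicate.

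The members, the gene lists and the tests were chosen with earlier results of these data known. Named genes were the members, the 5 genes most like each, and up to 4 genes of each list that passed, or 2 with the smallest p. One gene of these lists is not reported here. Of 8 marker lists, none had a marker that passed in the transgene comparison. The relations of members to adipocyte, endothelial and fibroblast scores (adjusted permutation p of 0.604 or more across libraries) and of Nr4a3 to the heat shock score (0.125) did not pass.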

Additional observations from a re-analysis of the deposited data

Results flagged for a closer look

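The AQ difference of Nr4a3 had opposite signs on the 2 diets. The interaction was -1.47 on the log2 scale. Every AQ library was below the untreated mean on the high-fat diet and every one above it on chow. This pattern restates the same values and is no separate test. On the high-fat diet the groups overlapped. WT-HFD was at 6.85, 6.47 and 1.40 CPM in replicate order, and WT-HFD-AQ at 1.34, 1.47 and 1.57 CPM. The interaction itself was tested with limma, at an adjusted p of 0.222. The exact permutation p was 0.02, or 0.4 adjusted over 24 tests, against no AQ effect on either diet. Without the third WT-HFD replicate the interaction was -2.03 with a limma adjusted p of 0.0346. Across the fits without 1 library it ran from -2.03 to -1.18, with limma adjusted p of 0.0346 to 0.399.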

How the results depend on the processing

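Of 309 values of the members under other settings, 300 kept their direction and their side of the threshold, and of 180 values without 1 library, 163 did. The Nr4a2 difference with the transgene stayed past the threshold in all of these (2.16 to 3.58 across settings, 2.81 to 3.14 without 1 library). Ranges across settings include other pseudocounts and count models, whose fold changes are on other scales. The Nr4a1 transgene difference passed when libraries were scaled to equal sums (-0.94, limma adjusted p = 0.0264), with DESeq2 (-1.0025), with these groups alone and with the replicate block (-0.98 each, limma adjusted p of 0.0071 and 0.0047), and with the clock score (-1.17). It did not pass under the other settings (limma adjusted p up to 0.0973), and ran from -1.14 to -0.90 without 1 library (limma adjusted p of 0.0431 to 0.230). Under AQ, the Nr4a1 diet difference no longer passed with the clock score (-1.27) or without a GC trend (-0.75), and ran from -1.14 to -0.59 without 1 library. The Nr4a3 diet difference under AQ passed with these groups alone (-0.98), and ran from -1.41 to -0.53 across settings. Without 1 library Nr4a3 ran from -1.64 to -0.79 for AQ on the high-fat diet, from -2.03 to -1.18 for the interaction and from -1.24 to -0.38 between the untreated high-fat groups, and Nr4a1 from -0.064 to 0.21 for AQ over both diets. Near-zero differences of Nr4a2 changed sign: AQ on the high-fat diet (-0.22 to 0.14 without 1 library, 0.0039 at equal sums) and diet (-0.13 to 0.066 without 1 library). Where no value shows it, the cause was not tested.

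Deviations of same-numbered libraries from their group means had r over 0.1 in 5 of 21 pairs (range -0.21 to 0.31). There was no reference for unpaired libraries, so this cannot settle whether the numbers pair the samples. The replicate block moved the calls from 6 to 23 for AQ on the high-fat diet, from 139 to 37 for AQ on chow, from 89 to 45 for the interaction and from 28 to 11 for AQ over both diets. No paired analysis was possible for the 2 untreated high-fat groups because the block was fitted within the AQ groups and within the transgene groups, whose numbers the labels do not link. Calls ranged over settings from 66 to 171 (main 75) for the transgene, 2 to 47 (6) for diet, 531 to 1728 (1324) for diet under AQ, 1 to 143 (6) and 12 to 280 (139) for AQ on the high-fat diet and chow, 25 to 229 (89) for the interaction, 4 to 177 (28) for AQ over both diets and 96 to 756 (559) between the untreated high-fat groups. Nr4a2 outside the transgenic group rests on 13 to 68 reads, and Nr4a3 on 5 to 99, which limits what could be detected.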
